A study of Mus musculus with 8 samples.

Results

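The genes described here are the protein-coding genes of the mouse whose symbols begin with Polr1, Polr2 or Polr3 or with Med and a digit, which encode subunits of the nuclear RNA polymerases and of Mediator. The rule took 58 of the 21887 protein-coding genes of RefSeq on GRCm38.p6, 28 of them polymerase genes and 30 Mediator genes. It reads the symbol only, so Twistnb, Cd3eap and Znrd1, older symbols of Pol I subunit genes, were counted among the companion genes described at the end.

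Histone H3 trimethylated at lysine 36 (H3K36me3) was located in the genome by ChIP-seq, the sequencing of DNA pulled down with an antibody to the mark, in bone marrow stromal cells (BMSCs), the adherent cells of marrow that include progenitors of bone, fat and cartilage. All cells were Setd2 fl/fl, which means that both copies of Setd2 carry loxP sites that Cre recombinase can cut out, and came from C57BL/6J mice at passage 2. The WT group received a lentivirus expressing GFP and the KO group a lentivirus expressing Cre, each with puromycin at 2 µg/ml for 4 days and formaldehyde at 1% for 10 min. There were 2 H3K36me3 libraries per genotype, together with 1 Input (chromatin before pull-down) and 1 IgG control (an antibody with no target). No label used here names the promoter of the lentiviral transgenes or the age of the mice. None says that replicates came from separate cultures, so p-values reflect the spread between these libraries alone, and that spread may be technical. A peak list shows neither the number of reads nor the number of cells behind a peak, so that fewer cells carrying the mark and less of the mark per cell cannot be told apart.

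Setd2 binds the elongating form of RNA polymerase II and writes H3K36me3 behind it, so that the mark lies over the bodies of transcribed genes and rises towards their ends. RNA polymerase I makes ribosomal RNA, II makes messenger RNA and III makes transfer RNA and other short RNAs. Mediator, with head, middle and tail modules and a detachable kinase module, bridges transcription factors and RNA polymerase II. The subunits of all these complexes are needed in dividing cells of most kinds, and their genes are themselves transcribed by RNA polymerase II.

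The measure was coverage, the percent of a gene's span from the first to the last annotated base that lay under peaks. Values are from the lists called against Input unless IgG is named. A change is KO minus WT in percentage points and was tested with limma over all genes with a mean coverage over the 4 libraries of at least 10%. A gene is said to have fallen when its Benjamini-Hochberg adjusted p was below 0.05. Peaks numbered 242745 and 246258 in the WT libraries and 122589 and 159459 in the KO libraries, of unknown depth. Setd2 itself was covered at 66.4% and 60.5% in WT and at 0.69% and 1.70% in KO, which shows a loss of peak coverage there but not the deletion. Of 15 stromal marker genes 11 passed the filter (Lepr, Ly6a, Nt5e and Thy1 did not), of 10 haematopoietic markers 6 and of 5 endothelial markers 1. The stromal list averaged 42.9% and 39.1% in WT, the haematopoietic list 23.4% and 30.9%, and the endothelial list 8.08% and 5.76%. In KO the averages were 2.25% and 1.87%, 1.73% and 6.11%, and 4.19% and 6.16%. No WT peak base lay over Thy1 of the stromal list or over Cd3e and Hbb-bs of the haematopoietic list. The 6 haematopoietic genes past the filter included Lyz2 (74.9% and 87.6% in WT), Cd68 (37.0% and 71.3%) and Csf1r (45.1% and 43.5%). The others were Itgam (23.9% and 21.7%), Adgre1 (18.6% and 17.3%) and Cd79b (0 and 38.2%). Whether other cell types took part in the values below was not tested.

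Nearly all starts of the subunit genes were bare of peaks. RefSeq gives 54 windows of 300 bases around starts (250 before and 50 after) for 48 of the 58 genes. In WT replicate 1 a single window held a peak base and in WT replicate 2 there were 2, against 3.35% and 3.28% of the 21263 windows of all protein-coding genes. Neither KO library had a peak base in any of the 54 windows, against 1.87% and 2.23% of the windows of all protein-coding genes. The sequences before 5 of these starts are shown because they hold both kinds of start, with bases under a WT peak in capitals and all others in lower case, 5′ to 3′ on the gene's strand. Polr2a (chr11:69758634-69758883, minus strand), which encodes the catalytic subunit of RNA polymerase II, and Polr2i (chr7:30231824-30232073, plus strand), the only subunit gene with no peak in any library, had none. Before the start of Med12 (chrX:101273841-101274090, plus strand), which encodes the activator of the Mediator kinase, 231 of 250 bases lay under a peak of WT replicate 2 and none under a peak of WT replicate 1. Med27 (chr2:29346560-29346809, plus strand) was bare at its outer start. Its inner start (chr2:29378264-29378513), 31704 bases further into the span, was covered at 250 of 250 bases in WT replicate 2 and at 31 in WT replicate 1.

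Polr2a: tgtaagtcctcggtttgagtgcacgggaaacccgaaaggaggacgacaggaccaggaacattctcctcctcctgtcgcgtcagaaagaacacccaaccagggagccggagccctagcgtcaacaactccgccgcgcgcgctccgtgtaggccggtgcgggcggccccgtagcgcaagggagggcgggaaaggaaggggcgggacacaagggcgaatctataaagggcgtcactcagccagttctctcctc
Polr2i: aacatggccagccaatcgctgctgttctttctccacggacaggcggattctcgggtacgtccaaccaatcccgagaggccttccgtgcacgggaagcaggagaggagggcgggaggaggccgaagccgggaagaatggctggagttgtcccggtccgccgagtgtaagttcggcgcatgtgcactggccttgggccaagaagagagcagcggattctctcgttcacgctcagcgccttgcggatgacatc
Med12: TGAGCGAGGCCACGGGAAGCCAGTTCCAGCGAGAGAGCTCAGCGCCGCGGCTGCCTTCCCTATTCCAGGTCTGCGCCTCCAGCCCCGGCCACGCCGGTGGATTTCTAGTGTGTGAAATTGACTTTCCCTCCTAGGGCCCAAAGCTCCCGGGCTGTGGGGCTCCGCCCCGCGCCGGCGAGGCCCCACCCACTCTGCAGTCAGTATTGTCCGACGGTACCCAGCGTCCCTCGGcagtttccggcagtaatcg
Med27, outer start: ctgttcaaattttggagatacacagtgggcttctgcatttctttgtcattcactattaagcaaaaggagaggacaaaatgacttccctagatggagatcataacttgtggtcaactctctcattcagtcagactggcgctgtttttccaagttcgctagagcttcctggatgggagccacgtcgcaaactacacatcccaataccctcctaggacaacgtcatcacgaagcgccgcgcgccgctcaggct
Med27, inner start: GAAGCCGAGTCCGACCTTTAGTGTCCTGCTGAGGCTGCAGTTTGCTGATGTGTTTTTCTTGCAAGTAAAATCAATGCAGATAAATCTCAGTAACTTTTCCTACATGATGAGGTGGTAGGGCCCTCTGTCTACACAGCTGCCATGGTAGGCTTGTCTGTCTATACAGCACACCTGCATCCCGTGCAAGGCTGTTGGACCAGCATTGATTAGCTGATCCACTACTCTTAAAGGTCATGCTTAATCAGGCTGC

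The windows were read for short motifs on both strands, none of which contains another. GGGCGG, a box bound by SP1-like factors, stood in 33 of the 54 windows (61.1%, against 46.2% of all windows of that length), Polr2a, Polr2i and Med12 among them. CCGGAAG, an ETS factor site, stood in 16 (29.6% against 11.6%) and GCGCATGC, a core of the NRF1 site, in 6 (11.1% against 3.52%). CCAAT stood in 18 (33.3% against 38.2%), among them the windows of Polr2i and the outer start of Med27, and TATAAA in 5 (9.26% against 12.6%), one of them Polr2a. The median GC content was 58.5% against 56.3%, and the median number of CpG was 20 against 13. These are descriptions of letters, with no test.

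Past the starts, nearly every subunit gene was covered by peaks in WT cells and far less covered in KO cells. Averaged over the 58 genes, coverage was 55.7% and 54.6% in the WT libraries and 2.68% and 2.88% in the KO libraries. Of 56 genes that passed the filter, 53 fell, none rose and 3 were not called. Of all 10809 tested genes 92.6% fell, so the share of subunit genes was close to that of tested genes. Without the filter 53 of 57 subunit genes fell. So did 58.5% of 18288 genes, which include genes with little coverage in any library. In all 56 both KO libraries lay below both WT libraries, as they did in 94.8% of tested genes. The median change was -58.55 points for the 56 genes and -47.68 for all tested genes. When each library was scaled to its mean coverage over all genes, 27 of the 56 fell and none rose. Of all tested genes 45.2% fell and 261 rose. The scaling makes the library means over all genes equal, while the tested genes were chosen on unscaled coverage. A fall left on this scale was therefore not shown to exceed the loss of genes at large. On that scale Polr3f, Polr3gl and Med27 were higher in KO without passing the test. Among the 10809 tested genes 2154 were higher in KO, called or not. The median scaled changes were -22.8 for the subunit genes and -16.7 for all tested genes.

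Polymerase genes were covered more widely than Mediator genes in WT. The average was 58.9% ± 0.857 (SD, n = 2 libraries) over the 28 polymerase genes and 51.6% ± 0.811 over the 30 Mediator genes, against 49.6% ± 1.15 over all tested genes. In both WT libraries 20 polymerase genes (71.4%) and 14 Mediator genes (46.7%) reached 50%, as did 45.1% of tested genes. In KO the averages were 3.24% ± 0.355 and 2.36% ± 0.609, and 20 of the 58 genes (34.5%) had no peak base in either KO library. That was so in 33.1% of all protein-coding genes, tested or not, and in 2722 of the 10809 tested genes. The change had a median of -60.6 points in polymerase genes, where 25 of 27 tested fell, and of -53.1 in Mediator genes, where 28 of 29 fell. No test was made between the 2 sets.

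**Figure D1:**
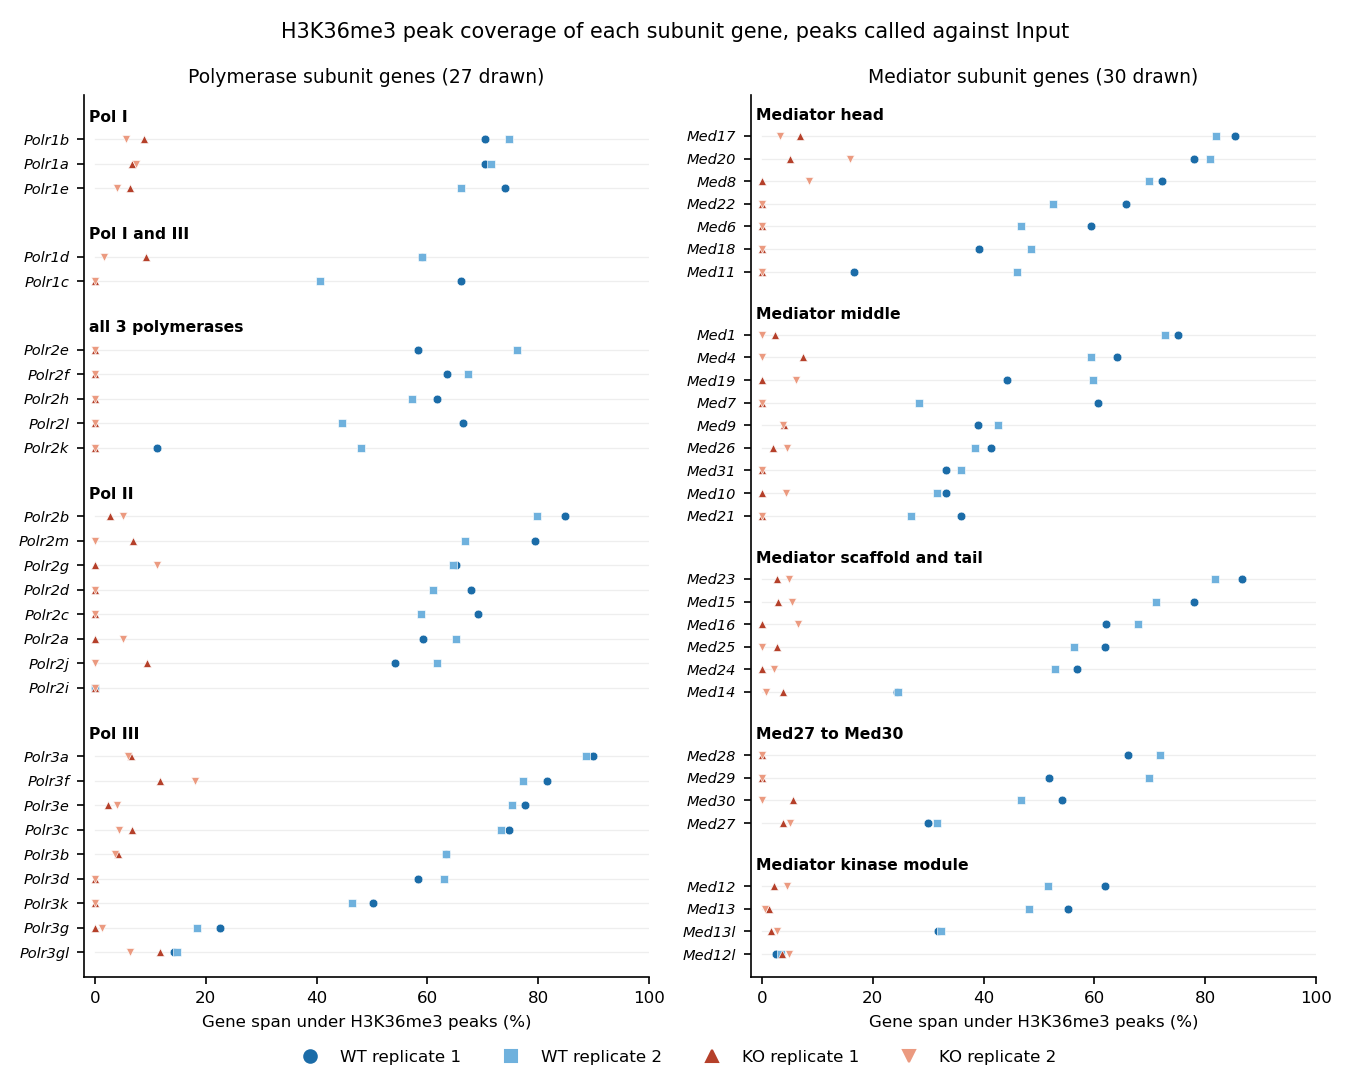
Percent of each gene's span under H3K36me3 peaks called against Input (horizontal axis), one row per gene within its role group, with the polymerase genes left and the Mediator genes right; the 4 symbols are the single libraries, and 1 polymerase gene is not drawn. Except for Polr2i, at 0 throughout, and Med12l, all WT symbols stand to the right of the KO symbols of their row, by the least in Polr3gl (14.2% and 14.8% against 11.7% and 6.33%).

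All 3 Pol I genes fell from a high level. Polr1a, which encodes the largest subunit of RNA polymerase I (chr6:71909053-71979435), was covered at 70.4% and 71.4% in WT and at 6.70% and 7.39% in KO. Polr1b, the second catalytic subunit, stood at 70.4% and 74.7% in WT and at 8.84% and 5.66% in KO. Polr1e, a subunit that helps start and extend the ribosomal RNA chain, was at 74.0% and 66.0% against 6.28% and 4.05%. The KO libraries of each lay far below its WT libraries, but all kept some peaks, and Polr1a and Polr1b were among the 5 subunit genes with the highest KO coverage. The falls ran from 63.9 points in Polr1a (SE 1.91, adjusted p = 0.000211) to 65.3 in Polr1b (SE 2.71, adjusted p = 0.000222). Scaled to each library's mean none of the 3 was called, with Polr1a at -8.71 (adjusted p = 0.279). The subunits that Pol I and Pol III share also fell: Polr1c dropped from 66.1% and 40.6% to 0 in both KO libraries (a change of -53.4, SE 9.72, adjusted p = 0.00856), and Polr1d from 59.0% and 59.1% to 9.25% and 1.68% (-53.6, SE 3.41, adjusted p = 0.000444). The WT libraries differed by 25.5 points in Polr1c and by less than 0.1 in Polr1d. The call of Polr1c was lost without KO replicate 1 (adjusted p = 0.0552), and that of Polr1d without WT replicate 1 (0.0567) or WT replicate 2 (0.0564).

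The 5 genes for subunits common to all 3 polymerases had no KO peak base at all. They are short, with a median span of 3.71 kb, and 4 of the 5 fell. All 9 subunit genes under 5 kb, whatever their role group, had no KO peak base. Polr2e fell the most of the 5, from 58.3% and 76.1% to 0 (-67.2 points, SE 6.92, adjusted p = 0.00156). Polr2f stood at 63.6% and 67.4%, Polr2h at 61.7% and 57.3% and Polr2l at 66.3% and 44.6% in WT. Polr2k, at 11.1% in WT replicate 1 and 48.0% in WT replicate 2 and 0 in KO, was not called (-29.6, SE 13.9, adjusted p = 0.115). Its WT libraries lay 36.9 points apart, the widest gap among the 58 genes. A stretch of 26.1% of its span is shared with Spag1, whose own peaks cannot be told apart from it there. Without WT replicate 1 the change of Polr2k was -48.0, with 1 WT library and no spread in KO, so a test cannot judge it.

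Among the genes for subunits of RNA polymerase II alone, 7 of 8 were tested and all 7 fell. Polr2a (chr11:69733997-69758633), whose protein carries the tail that Setd2 binds, was at 59.2% and 65.2% in WT and at 0 and 5.09% in KO. Both WT libraries filled its downstream part almost without a break, and WT replicate 2 had a single peak of 8284 bp there (chr11:69735605-69743888). The change was -59.6 points (SE 3.49, adjusted p = 0.000372). Polr2b, the second catalytic subunit, fell the most of the 7, from 84.9% and 79.8% to 2.68% and 5.11% (-78.5, SE 2.78, adjusted p = 0.000211). Polr2j, which pairs with Polr2c in the assembly of the enzyme, fell the least, from 54.1% and 61.7% to 9.45% and 0 (-53.2, SE 4.92, adjusted p = 0.00116). Polr2c and Polr2d had no KO peak base. Polr2m, a subunit that restrains the enzyme in the absence of Mediator, stood at 79.4% and 66.8% against 6.84% and 0. Polr2g, one of the stalk subunits, was at 65.2% and 64.7% against 0 and 11.2%. Its call was lost without either WT replicate (adjusted p = 0.0768 and 0.0757), and so was that of Polr2j (0.0666 and 0.0770).

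Polr2i, the gene of a small subunit that helps the enzyme read faithfully, had no peak in any library under either control. Its span is 1314 bp (chr7:30232074-30233387), and the nearest WT peaks began 516 bp and 501 bp away on the side of higher coordinates, while the nearest KO peaks were 8552 bp and 9087 bp away. It overlaps Tbcb (58.0% and 74.9% covered in WT) and Ovol3 (53.4% and 28.2%) at its edges. No level was left to compare between genotypes.

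Pol III genes held both the highest and some of the lowest coverage. Polr3a (chr14:24448694-24487070), the largest subunit, was at 89.9% and 88.7% in WT, above 99.6% of all protein-coding genes, and at 6.52% and 6.03% in KO. It fell the most of all 58 genes, by 83.0 points (SE 2.01, adjusted p = 0.000211), and carried the widest peak, of 11599 bp in WT replicate 2 (chr14:24449499-24461097). Polr3b, the second catalytic subunit, gave nearly equal values within each genotype, 63.4% and 63.3% against 4.07% and 3.52% (-59.6, SE 1.92). Polr3c, Polr3d and Polr3e, of the subcomplexes for starting and ending transcription, fell by 68.6, 60.6 and 73.3 points. Polr3k stood at 50.2% and 46.4% against 0 in both. In all of these the WT libraries differed by less than 5 points and lay above the KO libraries.

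Polr3g and Polr3gl encode alternative forms of one subunit, the first known from stem cells and dividing cells and the second from most tissues. Both were low. Polr3g was at 22.5% and 18.4% in WT and at 0 and 1.26% in KO, a fall of 19.8 points (SE 2.60, adjusted p = 0.00313). Polr3gl was at 14.2% and 14.8% in WT and at 11.7% and 6.33% in KO, and was not called (-5.49, SE 2.83, adjusted p = 0.140). Its groups did not overlap, but KO replicate 1 stood close to both WT libraries. With each library scaled to its mean it stood at 7.88 and 8.47 in WT and at 58.4 and 24.9 in KO, a difference of 33.4 that did not pass (adjusted p = 0.131).

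Polr3f, a subunit that contacts the initiation factors, had the highest KO coverage of the 58 genes, 11.8% and 18.1%, beside 81.6% and 77.2% in WT. It fell by 64.5 points (SE 3.46, adjusted p = 0.000313), and after scaling it was 20.3 higher in KO (adjusted p = 0.392). The KO libraries shared 1133 bp of peaks inside it, all on bases that both WT libraries also covered. In Polr3gl they shared 438 bp (chr3:96587291-96587728), none of it on such bases. Over all 58 genes the KO peaks spanned 62335 bp and 70254 bp of 1889937 bp, and 6853 bp were common to both. That was 5.45% of their union, and the share was 60.0% for the WT pair. Such a share rises with coverage, so these values do not compare how well replicates match. Coverage of the summed span was 3.30% and 3.72% in KO and 44.9% and 43.7% in WT. Of the KO bases 52.2% and 50.2% lay where both WT libraries had peaks, which is 33.2% of the summed span. Shared KO bases occurred in 12 genes. No KO peak over a subunit gene was wider than 2 kb, and in the whole KO lists only 0.0742% and 0.0690% were. Of the WT peaks over subunit genes 17.1% and 15.4% were wider (8.61% and 7.57% in the whole lists).

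**Figure D2:**
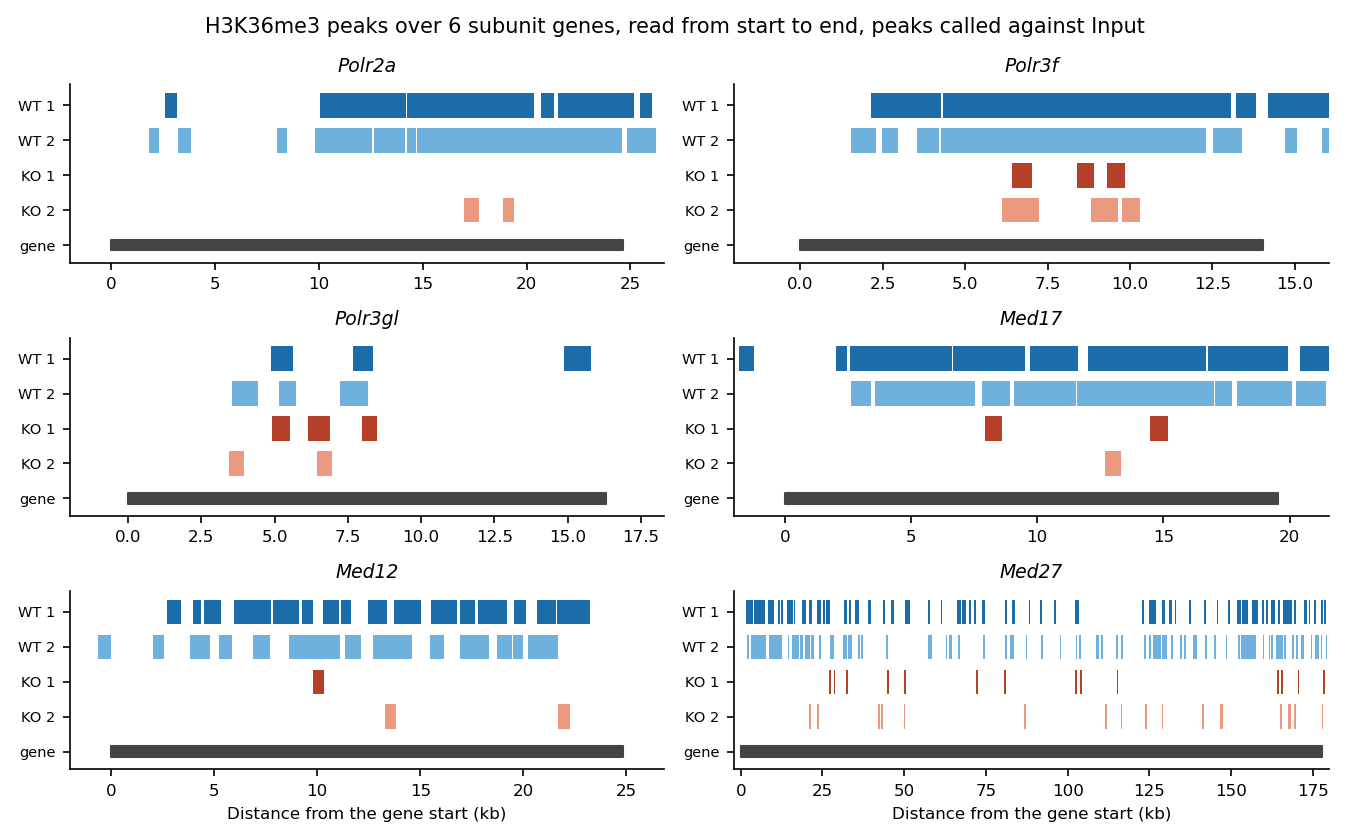
Peaks called against Input over 6 genes, drawn by distance in kb from the gene start, with the gene span as a dark bar and one row per library; WT rows are blue and KO rows red. Inside Polr2a, Polr3f, Polr3gl and Med17 the WT peaks begin 1.5 kb or more from the start and fill most of Polr2a's downstream part, WT replicate 2 has a peak before the start of Med12, and the KO peaks of Polr3f sit inside the WT peaks.

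The Mediator head, the module that touches RNA polymerase II, had 6 of 7 genes fall. Med17 (chr9:15260351-15279906), its central subunit, fell the most, from 85.4% and 82.0% in WT to 6.85% and 3.26% in KO (-78.6 points, SE 2.60, adjusted p = 0.000211). Med6, Med18 and Med22 had no KO peak base and fell by 53.1, 43.9 and 59.1 points. Med8 was at 72.2% and 69.8% against 0 and 8.50%, and its call was lost without WT replicate 1 (adjusted p = 0.0522). Med11, a gene of 1815 bp, was at 16.5% and 46.0% in WT and at 0 in KO and was not called (-31.3, SE 11.2, adjusted p = 0.0594). Without WT replicate 1 the change of Med11 was -46.0, with 1 WT library and no spread in KO, so a test cannot judge it. Med20 stood at 77.9% and 80.8% against 5.02% and 15.9%, the second highest KO mean, but its whole span lies within Gm20517, so that its peaks cannot be assigned to either gene. It fell by 68.9 points, a call lost without WT replicate 1 (adjusted p = 0.0620) or WT replicate 2 (0.0643).

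All 9 genes of the middle module fell, from a lower WT average of 45.7% ± 2.43 (SD, n = 2 libraries). Med1 (chr11:98152154-98193313), which contacts nuclear receptors, fell the most, from 75.0% and 72.7% to 2.43% and 0 (-72.6 points, SE 2.25, adjusted p = 0.000211). Med10 fell the least, from 33.2% and 31.5% to 0 and 4.25% (-30.2, SE 2.54, adjusted p = 0.000891). Med21 and Med31 had no KO peak base and fell by 31.4 and 34.6 points, Med9 and Med26 by 36.9 and 36.6, and Med4 and Med19 by 58.0 and 48.9. Med7 was at 60.7% in WT replicate 1 and 28.4% in WT replicate 2 against 0 in KO and passed narrowly (-44.6, SE 12.2, adjusted p = 0.0289). Without KO replicate 1 or KO replicate 2 Med7 was not called (adjusted p = 0.118 and 0.103). Med10 lost its call without either WT replicate (0.0581 and 0.0544), Med4 without WT replicate 1 (0.0534) and Med19 without WT replicate 2 (0.0591).

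The scaffold and the tail, where many transcription factors dock, had all 6 genes fall. Med23 fell the most of the Mediator genes, from 86.6% and 81.8% to 2.78% and 4.94% (-80.3 points, SE 2.69, adjusted p = 0.000211), and one of its WT peaks was 10696 bp wide (chr10:24900543-24911238). Med14, the X-linked scaffold gene that joins head, middle and tail (chrX:12675368-12762594), was at 24.3% and 24.6% in WT and at 3.78% and 0.65% in KO (-22.3, SE 2.30, adjusted p = 0.00152). Its fall was the smallest of the 6, and its WT libraries lay close together while its KO libraries did not. Med15, Med16, Med24 and Med25 fell by 70.4, 61.7, 53.8 and 57.8 points. Of the 4 genes from Med27 to Med30, Med28 and Med29 fell to 0 from 66.2% and 71.8% and from 51.9% and 69.9%, the largest fall of the 4 being 69.0 points in Med28 (SE 2.84). Med27, with a span of 178.0 kb, fell the least, from 30.1% and 31.5% to 3.79% and 4.99% (-26.4, SE 2.00, adjusted p = 0.000651). Med30 stood at 54.2% and 46.7% against 5.62% and 0, and its call was lost without WT replicate 1 (adjusted p = 0.0516).

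The genes of the kinase module that the rule took form paralog pairs, and each pair held a widely and a less widely covered gene. The kinases of the module and their cyclin are among the companion genes. Med12 (chrX:101274091-101298934) was at 61.8% and 51.7% in WT and at 2.13% and 4.54% in KO, a fall of 53.4 points (SE 4.36, adjusted p = 0.000827). Med12l, its paralog with a span of 313.0 kb, was at 2.59% and 3.44% in WT and at 3.64% and 4.82% in KO. It was below the filter, and it was the only subunit gene in which both KO values exceeded both WT values. Med13, which ties the kinase module to the rest of Mediator, fell from 55.3% and 48.1% to 1.22% and 0.63% (-50.8, SE 3.30, adjusted p = 0.000466). Its paralog Med13l fell from 31.8% and 32.3% to 1.57% and 2.66% (-29.9, SE 1.94, adjusted p = 0.000445). The span of Med12l is shared over 35.8% of its length with other genes, among them P2ry12 and P2ry14. On the X chromosome, where Med12 and Med14 lie, 157 of 200 tested genes fell.

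Along the genes WT coverage by peaks called against Input rose from start to end. Each span was cut into 10 equal bins. Over the 48 genes with a strand in RefSeq, bin 1, at the start, was covered at 7.11% and 8.004% in the WT libraries, bin 5 at 55.8% and 54.8%, bin 9 at 77.4% and 79.1% and bin 10 at 81.5% and 71.6%. Over 8813 tested genes the same bins stood at 10.8% and 10.4%, 53.7% and 52.2%, 69.2% and 67.4%, and 68.0% and 65.9%. Bin 10 was above bin 1 in 45 and 43 of the 48 genes, as in 7571 and 7585 of the 8813 tested genes. It was below bin 1 in 2 of the 48 in each library: Med27 in both (61.2% and 63.8% in bin 1 against 47.4% and 48.0% in bin 10), Med1 in WT replicate 1 and Med12 in WT replicate 2. The median distance from the start to the first covered base was 2.14 kb and 2.32 kb, against 2.72 kb and 2.77 kb over the tested genes. In the 2 kb after the gene end coverage was 60.0% and 55.4% (51.0% and 49.0% over the tested genes), and in the 2 kb before the start it was 5.59% and 7.83% (6.99% and 6.70%). In KO no bin of the 48 genes averaged more than 9.91%. The polymerase genes alone reached 13.8% in bin 10 in KO replicate 1 but 3.90% in KO replicate 2. The tested genes stood at 3.96% and 4.86% there. Against IgG the rise was less steady. Bin 10 was above bin 1 in 35 and 38 of the 48 genes and below it in 6 and 4. Among the 8813 tested genes it was above in 6691 and 6678 and below in 656 and 640. The polymerase genes were highest in mid-gene, at 61.5% in bin 6 in WT replicate 1 and 62.3% in bin 5 in WT replicate 2. They stood at 53.3% and 52.3% in bin 10. The Mediator genes were highest in bin 9 against IgG, at 67.1% and 74.8%, with 62.1% and 60.9% in bin 10. So were the 8813 tested genes, at 56.8% and 55.0%, with 54.7% and 52.8% in bin 10.

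**Figure D3:**
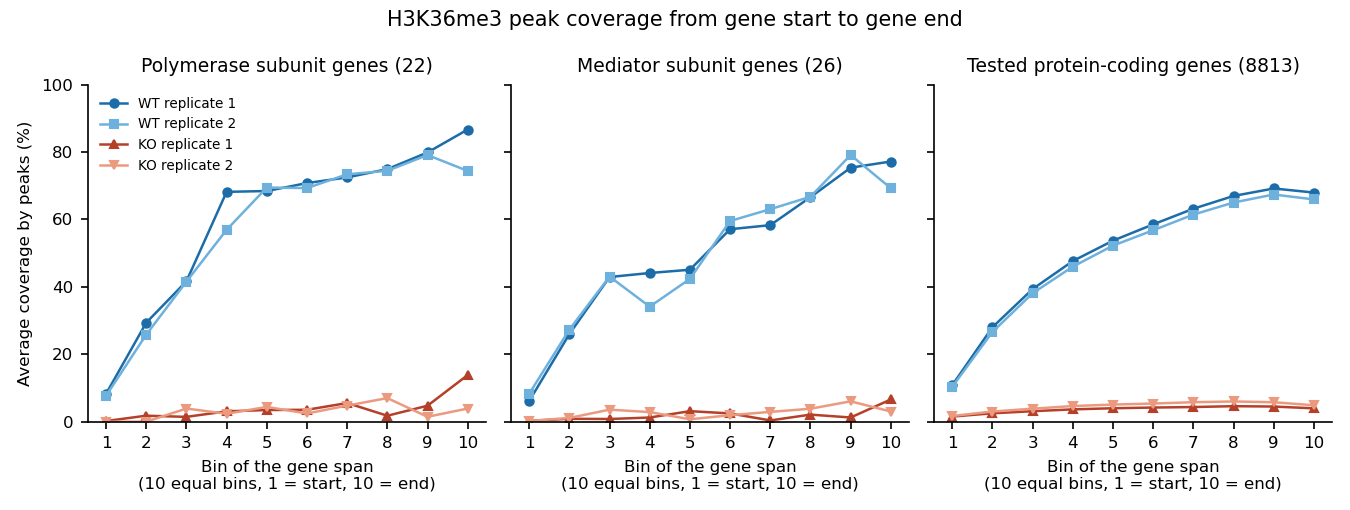
Average coverage by peaks called against Input (vertical axis, percent) in each of 10 equal bins of the gene span from start to end, for the 22 polymerase and 26 Mediator genes with a known strand and for all 8813 tested genes with one; each line is a library. The WT lines climb from 10.8% or less in bin 1 to their highest values in bins 9 and 10 in all 3 panels. The KO lines reach at most 13.8%, in bin 10 of the polymerase genes in KO replicate 1.

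The spread between the WT libraries was wider in the shorter genes. It had a median of 17.8 points in the 9 genes under 5 kb, of 5.57 in the 28 genes of 5 to 20 kb and of 2.79 in the 21 genes of 20 kb or more. In 5 genes it was over 20 points: Polr2k, Med7, Med11, Polr1c and Polr2l. All 9 genes under 5 kb had no KO peak base, and 6 of the 8 tested among them fell. Over all protein-coding genes 33.1% had no KO peak base, and 92.6% of tested genes fell. The shares among all genes of that length were not counted.

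**Figure D4:**
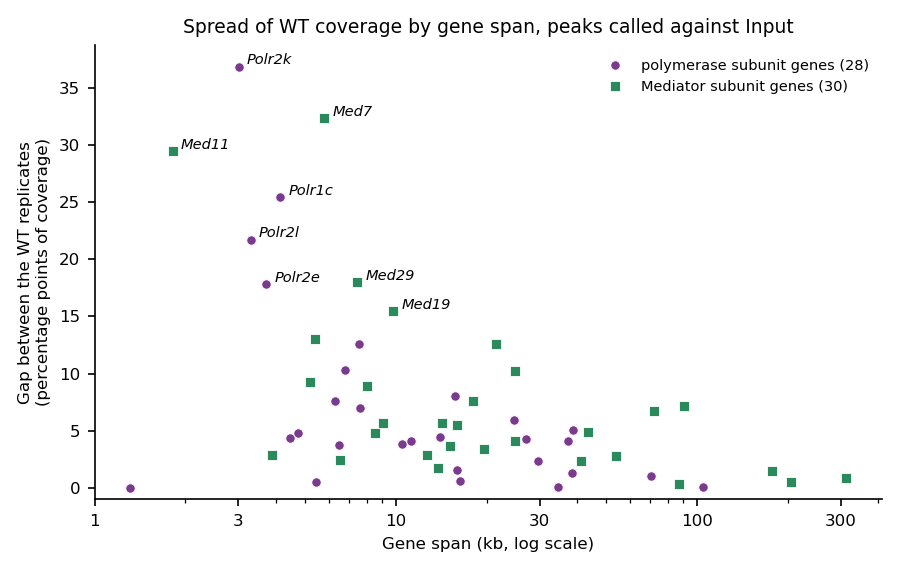
Gap in coverage between the 2 WT libraries (vertical axis, percentage points) against gene span (horizontal axis, kb, log scale), one point per gene, peaks called against Input. The gaps over 20 points belong to Polr2k, Med7, Med11, Polr1c and Polr2l, all of which are shorter than 6 kb.

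Peaks called against IgG gave a lower WT coverage, 46.6% ± 0.123 against 55.1% ± 0.833 (SD, n = 2 libraries), and the same direction of change in every tested subunit gene. The 2 sets of lists come from the same H3K36me3 libraries and are no independent repeat. Against IgG 51 genes were tested, 48 fell, none rose and 3 were not called, beside 91.4% of all 9635 tested genes that fell. In 50 of the 51 the groups did not overlap, as in 95.7% of tested genes. Mean WT coverage was lower against IgG in 39 of the 58 genes, higher in 3 and equal at a level above 0 in 15. The largest differences were in Polr2l and Polr2e, small subunits common to all polymerases. Polr2l had no peak against IgG in any library, Polr2e was at 16.1% and 17.4% in WT and Polr2f at 29.7% and 44.5%. The average of that group was 28.6% ± 6.89 against IgG and 55.4% ± 4.58 against Input. Med28 stood at 20.8% and 39.1% and Polr3k at 16.2% and 20.9%.

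The call differed between the controls in 7 genes. Polr2e, Polr2l, Polr3k, Polr3g (21.8% and 16.7% in WT, 0 and 1.26% in KO) and Med21 (21.1% and 18.8% in WT, 0 in KO) fell against Input and were below the filter against IgG. Med8 was at 72.2% in WT replicate 1 and 0 in WT replicate 2 against IgG, with 0 and 8.50% in KO, and was not called (-31.9, SE 28.2, adjusted p = 0.338). Polr3gl, not called against Input, fell against IgG from 14.2% and 14.8% to 7.83% and 6.33% (-7.41, SE 1.78, adjusted p = 0.0230). Med11 and Polr2k were not called under either control (adjusted p = 0.0705 and 0.130 against IgG).

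**Figure D5:**
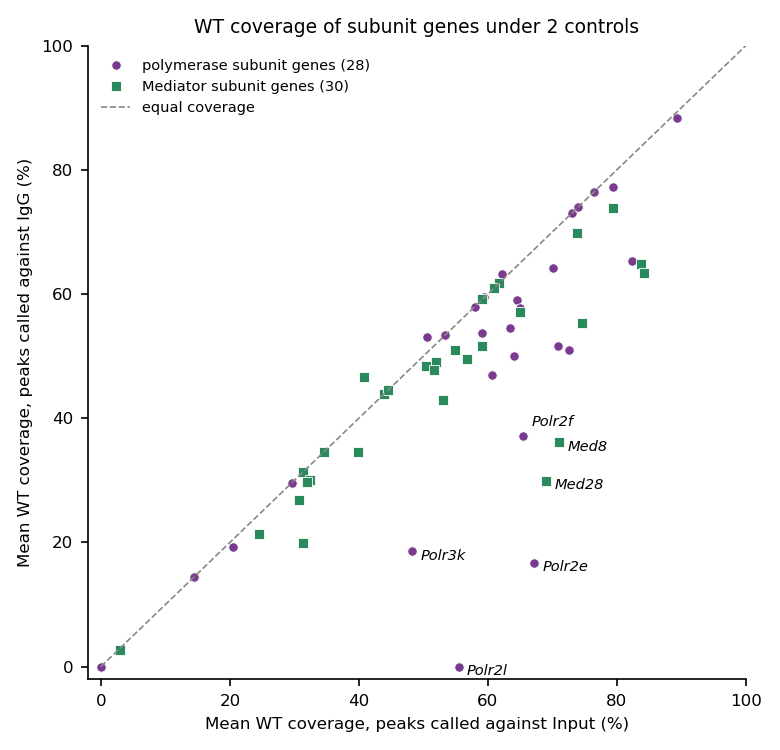
Mean WT coverage of each gene by peaks called against Input (horizontal axis) and against IgG (vertical axis), in percent, with polymerase genes as circles, Mediator genes as squares and equal coverage as the dashed line. Most points lie on or a little below the line, and Polr2l, Polr2e, Polr3k, Med28, Med8 and Polr2f lie more than 25 points below it.

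Other genes of the transcription machinery lost coverage as well. Of 77 companion genes (general initiation factors, partners of the 3 polymerases, Mediator kinases, assembly factors, enzymes of the polymerase tail and mitochondrial transcription), 76 were tested and all 76 fell against Input, where 92.6% of all tested genes did. Scaled to each library's mean, 44 of the 76 fell. Their average was 59.6% ± 0.847 in WT and 2.78% ± 0.665 in KO (SD, n = 2 libraries), with a median change of -60.4 points. Cdk19, a Mediator kinase, was below the filter at 17.2% and 14.7% in WT and 2.66% and 2.21% in KO, while its paralog Cdk8 fell from 37.2% and 35.9% to 0.73% and 2.84%, the smaller fall of the 2 tested kinase genes, and Ccnc, their cyclin, fell by 46.8 points. The Pol III partners had the highest WT average of the groups, 70.4% ± 2.68, with Gtf3c1, the largest subunit of TFIIIC, falling by 86.0 points and Snapc2 by 40.0. Among Pol I partners Rrn3, which readies the enzyme for initiation, fell by 82.3 points and Twistnb by 33.8, and Cd3eap and Znrd1 fell from 67.8% and 62.0% and from 44.1% and 34.7% to 0.

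In TFIID, which binds the core promoter, all 14 genes fell, with changes from -75.3 points in Taf2 to -14.3 in Taf3. In TFIIH, which opens the promoter, all 10 fell, with changes from -79.9 points in the helicase gene Ercc3 to -23.0 in Mnat1. TFIIA, TFIIB, TFIIE and TFIIF also fell, with changes from -75.9 points in Gtf2f1 to -23.5 in Gtf2f2. Gpn2, an assembly factor, fell by 83.9 points and Rprd1a by 27.4. Polrmt, the mitochondrial RNA polymerase encoded in the nucleus, fell by 82.4 points and Tefm by 39.5. Against IgG 71 companions were tested and 68 fell. Taf1a (47.6% and 20.2% in WT), Maf1 (72.9% and 0) and Polrmt (85.7% and 18.2%) were not called there (adjusted p = 0.0564, 0.285 and 0.170), each with a wide gap between the WT libraries.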

How the data were processed

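H3K36me3 ChIP-seq of WT and KO cells was read from 8 peak lists that the authors deposited, 2 for each of the 4 H3K36me3 libraries, with Input as the control in one and IgG in the other, per the labels. The submitters' processing notes name Bowtie2, without a version, and the build GRCm38. Which peak caller settings were used is not given in the sources used here. Each peak carries a score deposited by the authors, with 13.01 as the smallest in the Input lists of WT replicate 1, whose scale is not stated. It was used only to filter peaks within a list. The lists give no reads, so depth and any limit below the peak threshold are unknown.

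Symbols, spans and start windows came from RefSeq tables of GRCm38.p6 (21887 protein-coding genes), where the strand was taken from the table of start windows. Coverage was the percent of the span under peaks. It was compared, KO against WT without a replicate block, with limma 3.58.1 (trend and robust eBayes, statmod 1.5.0, R 4.3.3) on the percent scale over genes with a mean of at least 10%, with Benjamini-Hochberg adjustment over all tested genes and a threshold of 0.05. A filter on the mean keeps genes that fell. The test and the coverage code were checked on simulated data. Python 3.11.15, numpy 2.4.6, pandas 2.3.3 and matplotlib 3.10.9 did the rest. Alternatives were another filter or none, merged peaks, stronger peaks, scaled libraries, spans without other genes, plain eBayes, a replicate block, a log2 scale and each library left out.

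The genes, role groups, companion and marker lists were chosen with earlier results of these data known. Named were the largest subunits, the paralog pairs, per role group the largest and the smallest fall, genes below the filter or without a call, genes whose call differed between controls and the 5 with the highest KO coverage. Other members were named after their values were seen, and 1 polymerase gene, counted in all totals, is not reported here by itself. Companions were named by the largest and smallest fall per group and where not called, and Cd3eap, Znrd1, Cdk19 and the genes below the IgG filter after their values were seen. Of the companion symbols, 4 (Polr1f, Polr1g, Polr1h and Taf4a) were not among the protein-coding symbols of the table.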

Additional observations from a re-analysis of the deposited data

How the results depend on the processing

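The numbers of genes that fell stayed within 1.5 times of the reported ones (53 subunit genes against Input, 48 against IgG and 76 companions) under every alternative but 1. With each library scaled to its mean coverage they were 27 of 56, 19 of 51 and 44 of 76. Of all tested genes 45.2% fell on that scale against Input and 39.1% against IgG. On that scale Polr3f (20.3), Polr3gl (33.4) and Med27 (1.91) were higher in KO, without passing the test, and no other alternative turned a direction. With 1 library left out, the remaining library stood for its group, its spread assumed to be that of the others. Of the 53 called genes, 39 were called again without each library in turn, 11 lost the call without at least 1, and Polr3g, Med14 and Med21 fell below the filter without a WT library and were then not tested. Libraries with the same replicate number shared no deviation in coverage (correlation -0.00333 against Input and -0.0131 against IgG, with only 2 pairs). That cannot show whether they were processed together. With a replicate block 54, 48 and 76 genes fell, Med11 being the one added (adjusted p = 0.0401). Of all tested genes 92.5% fell with the block against Input and 92.3% against IgG. With a filter of 25% fewer genes were tested, and 41 of 41 subunit genes fell against Input, 34 of 34 against IgG and 58 companions. Of all genes past that filter 98.6% fell against Input and 97.8% against IgG. Beyond these, Med31 lost its call with peaks at or above the median score, Med7 with peaks merged, and Med8, Polr2g and Polr2j on the log2 scale, where Med11 and Polr2k gained one. The peak lists limit all of this: signal under the caller's threshold reads as 0, a deeper library may show more and wider peaks, and depth cannot be seen.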

Other observations

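Some subunit genes lie near each other in the genome. Polr3gl and Polr3c are 117.3 kb apart on chromosome 3, and the first was covered at 14.2% and 14.8% in WT against 74.8% and 73.2% for the second. Med16 and Polr2e are 127.0 kb apart on chromosome 10, with 62.1% and 67.8% against 58.3% and 76.1%. Chromosome 11 holds 8 of the 58 genes, more than any other, from Med7 to Med24.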
